A study of Mus musculus with 35 samples.

Results

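Secreted antagonists of Wnt and hedgehog signalling (Sost, Wif1, Hhip, Sfrp1, Sfrp2, Frzb, Dkk2 and Dkk3) were followed through 35 RNA-seq libraries of mouse aorta. They were found by their symbols, 8 of the 14174 genes in the table, and all 8 were measured and passed the filter on low values. The tissue was the aorta of C57BL/6 mice from root to iliac bifurcation, with the fat around the vessel removed per the labels. The 3 genotypes were EKO/hA-I, which lacks ApoE and overexpresses human apoA-I, the chief structural protein of HDL particles; EKO, which lacks ApoE and develops atherosclerosis; and wild type (WT). The promoter that drives the human transgene is not given in the labels. Mice aged 8 weeks at the start received a Western diet (WD) or chow for 6 or 22 weeks, so that they were 14 or 30 weeks old at the end. These 12 groups held 3 libraries each, except for EKO/hA-I on chow for 6 weeks, with 2. The genes were selected on measured differences in these libraries, among them the low Hhip level of EKO aortas after 22 weeks of WD. Every comparison that holds those EKO libraries is therefore given as a description with no test. The other comparisons were tested, but the genes were still picked with results of these data known. Their p-values therefore do not stand apart from that choice.

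Wnt proteins act by binding Frizzled receptors together with the coreceptors LRP5 or LRP6, which stabilises beta-catenin and turns on target genes such as Axin2. Secreted antagonists block this at 2 places. Wif1 and the secreted Frizzled-related proteins Sfrp1, Sfrp2 and Frzb bind the Wnt ligand itself, whereas sclerostin (the product of Sost) and the Dickkopf protein Dkk2 bind the coreceptors. Dkk3 is a divergent Dickkopf whose action on the pathway is less settled. Hhip is a membrane-anchored and partly released protein that binds hedgehog ligands, and its gene is itself a hedgehog target. Sclerostin is best known from bone, where osteocytes release it to restrain bone formation, and it is also made by smooth muscle cells of large arteries.

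The promoter sequences of Sost, Hhip, Sfrp2 and Dkk2 are shown because these 4 share 1 sequence feature near the start of the gene that the choice of genes did not use. Each line gives the 250 bases before the annotated start (RefSeq, GRCm38.p6), read 5′ to 3′ on the strand of the gene. Sost lies on the minus strand at chr11:101967016-101967265, Hhip on the minus strand at chr8:80058009-80058258, Sfrp2 on the plus strand at chr3:83766071-83766320 and Dkk2 on the plus strand at chr3:132085042-132085291. None of the 4 windows overlaps a GENCODE exon. Capitals mark matches to TAAAAA, or to TATAAA where the 2 overlap, in Dkk2 also 1 match of TAAAAA on the opposite strand.
Sost: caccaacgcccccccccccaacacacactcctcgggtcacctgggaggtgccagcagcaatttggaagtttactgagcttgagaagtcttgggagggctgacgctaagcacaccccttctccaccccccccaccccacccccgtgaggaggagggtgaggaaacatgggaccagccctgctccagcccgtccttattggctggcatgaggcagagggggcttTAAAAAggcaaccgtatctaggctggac
Hhip: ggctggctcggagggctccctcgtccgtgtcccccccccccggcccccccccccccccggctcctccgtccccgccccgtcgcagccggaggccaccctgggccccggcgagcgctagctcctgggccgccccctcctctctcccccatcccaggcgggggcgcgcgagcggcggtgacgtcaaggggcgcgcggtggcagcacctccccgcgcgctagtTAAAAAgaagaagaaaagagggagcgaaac
Sfrp2: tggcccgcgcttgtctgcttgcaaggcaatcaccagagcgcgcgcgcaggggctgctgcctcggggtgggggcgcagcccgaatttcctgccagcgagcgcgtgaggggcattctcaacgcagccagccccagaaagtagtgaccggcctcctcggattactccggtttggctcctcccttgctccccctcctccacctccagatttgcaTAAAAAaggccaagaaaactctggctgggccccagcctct
Dkk2: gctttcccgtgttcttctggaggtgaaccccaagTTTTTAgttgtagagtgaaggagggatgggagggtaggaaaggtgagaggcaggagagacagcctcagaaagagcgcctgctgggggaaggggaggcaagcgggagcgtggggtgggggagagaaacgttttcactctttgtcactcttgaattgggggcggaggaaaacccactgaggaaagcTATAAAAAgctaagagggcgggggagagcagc
The run TAAAAA began 28 bases before the start in Sost, 30 in Hhip, 40 in Sfrp2 and 30 in Dkk2. Of all 32817 promoter windows of the same length, 1.64% held this run on the strand of the gene within the last 50 bases, and 17.8% held it anywhere on either strand. The run was picked after the sequences had been read, so these shares describe it and test nothing. Windows were found for 6 of the 8 genes, not for Sfrp1 and Dkk3. The TATA motif TATAAA, searched on both strands, was found in 2 of the 6 (Dkk2 and, on the opposite strand, Wif1) and in 12.4% of all windows. In these windows 0 of the 6 genes held the GLI motif GACCACCCA (0.225% of all windows), the TCF/LEF motifs CTTTGAA (4.46%) or CTTTGAT (3.21%), or a CArG box, the serum response factor motif (1.47%). G and C made up 61.2% of the Sost window, 76.0% of the Hhip window, 63.6% of the Sfrp2 window and 55.6% of the Dkk2 window, against a median of 52.4% over all windows.

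Values are normalised signal as the authors deposited it. Whether it was scaled to gene length is not given, so levels are compared between groups and never between genes. Between 6.86 and 25.33 M reads stood behind a library (median 15.05 M), as inferred from the step between low values. The smallest number of inferred reads behind any value of a member was 9, for Wif1. Apoe ranged from 5.37 to 29.7 in the 23 EKO and EKO/hA-I libraries and from 416 to 1276 in the 12 WT libraries, which separates WT from the others but not EKO from EKO/hA-I. For replicate 3 of WT on WD for 22 weeks the title names WT and the genotype tag EKO; it was kept as WT, and its Apoe lay in the WT range. Y-linked transcripts were lacking in 12 of the 35 libraries, and with a term for these libraries 2 single-gene calls were lost. All 10 smooth muscle markers (Myh11, Acta2 and others) and all 10 endothelial markers were in the table. All 10 cardiac muscle and all 10 nerve markers were there too, so presence alone does not show the labelled tissue. Over the libraries, smooth muscle markers summed to 4228 to 40390 and endothelial markers to 1102 to 3361. Brown fat markers were also present, with Ucp1, the thermogenic protein of brown adipocytes, between 603 and 9750.3. In such bulk tissue, fewer cells of a type and less RNA per cell cannot be told apart.

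**Figure D1:**
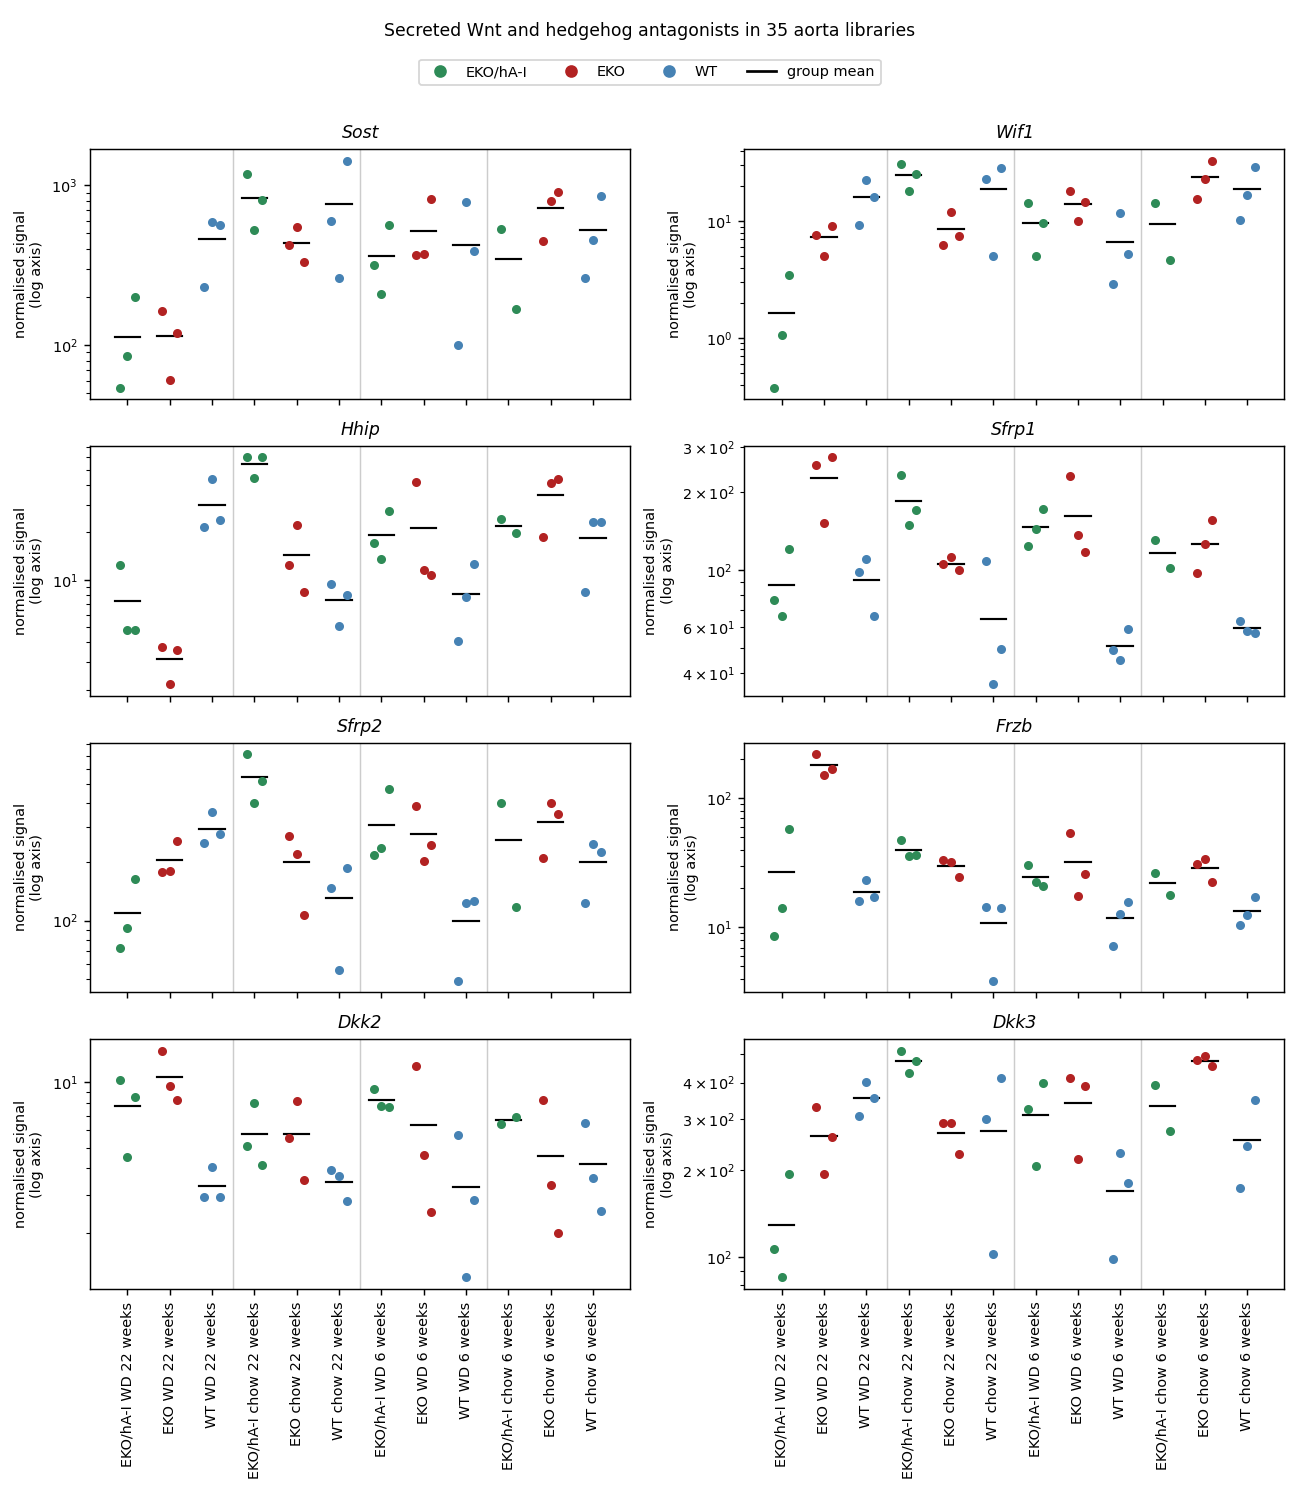
Normalised signal (log axis) of each of the 8 genes in 35 libraries; each point is 1 library, black bars are group means, and colours give the genotype. Frzb of EKO aortas on WD for 22 weeks (151 to 219) stands above every other library, and Wif1 of EKO/hA-I aortas in the same feeding (0.378 to 3.47) includes the lowest values of that gene.

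Over all libraries Wif1 spanned the widest range (0.378 to 33.0, an 87.4-fold range), followed by Frzb (3.87 to 219, 56.6-fold), Hhip (2.17 to 59.8, 27.5-fold) and Sost (54.3 to 1426, 26.2-fold). Dkk3 (85.2 to 515) and Sfrp1 (36.1 to 274) spanned the narrowest, 6.05-fold and 7.58-fold. When the 12 groups were ranked by mean level, few neighbours in the order stood apart by more than the larger of their SDs. There were 2 such steps of 11 for Sfrp2 and Frzb, 1 each for Wif1, Hhip, Sfrp1 and Dkk3, and 0 for Sost and Dkk2. EKO/hA-I on chow for 22 weeks ranked highest for Hhip (54.5 ± 9.14, SD, n = 3), Sfrp2 (545 ± 158), Sost (835 ± 329) and Wif1 (24.8 ± 6.21). The step down to the next group exceeded the spread for Hhip and Sfrp2. EKO on WD for 22 weeks ranked highest for Frzb (179 ± 35.5), Sfrp1 (227 ± 65.9) and Dkk2 (10.7 ± 3.01), the step down exceeding the spread for Frzb. EKO/hA-I on WD for 22 weeks ranked lowest for Sost (113 ± 76.2), Wif1 (1.64 ± 1.62) and Dkk3 (129 ± 57.6), the last step exceeding the spread for Wif1. The lowest Hhip mean was that of EKO on WD for 22 weeks (3.16 ± 0.860), and WT on WD for 6 weeks was lowest for Sfrp1 (50.9 ± 7.38), Sfrp2 (99.3 ± 43.4) and Dkk2 (3.27 ± 2.26).

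After 22 weeks of WD, EKO aortas had high levels of Frzb, Sfrp1 and Dkk2 and low levels of Hhip and Sost relative to WT, while the means of the other ligand binders, Sfrp2 and Wif1, lay lower in EKO. Frzb, the secreted Frizzled-related protein first known from cartilage, had 219, 151 and 169 units of signal in EKO, against 16.1, 23.4 and 17.2 in WT (log2 fold change 3.18 ± 0.47, SE). Hhip had 3.73, 2.17 and 3.58 in EKO, against 21.7, 43.5 and 23.9 in WT (-2.84 ± 0.48). In both genes every EKO library lay outside the WT range. Sfrp1 had 256.5, 152 and 274 in EKO, against 98.2, 110 and 66.2 in WT (1.29 ± 0.31). Dkk2, which binds the LRP coreceptors, had 14.1, 9.60 and 8.31 in EKO, against 2.95, 4.07 and 2.94 in WT (1.41 ± 0.43). Sost had 164, 60.2 and 119 in EKO, against 230, 585 and 565 in WT (-1.99 ± 0.68). These 3 genes also did not overlap between the groups. Wif1 (-0.99 ± 0.55), Sfrp2 (-0.53 ± 0.49) and Dkk3 (-0.46 ± 0.39) lay lower in EKO by less than 2 SE. Adjusted p was at most 0.05 for 3 members on the higher and 2 on the lower side, beside 22.0% of all 14157 genes in either direction (14.8% higher and 7.20% lower). Ranges were apart for 6 members, beside 40.5% of all genes. Because these libraries served to choose the genes, nothing is read from those counts.

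Markers of other cells differed in the same libraries. The 12 macrophage markers summed to 6819 to 9812 in EKO aortas on WD for 22 weeks, against 384 to 769 in WT. The 10 smooth muscle markers summed to 6219 to 10810 in EKO, against 16880 to 27630 in WT. With a term for the smooth muscle markers in the fit, the log2 difference of Sost was -0.05 ± 0.36, that of Hhip -2.0 ± 0.48 and that of Frzb 4.19 ± 0.42. The same term turned the sign of Dkk3 (0.69 ± 0.17), Sfrp2 (0.63 ± 0.38) and Wif1 (0.52 ± 0.33). With a term for brown adipocyte markers, they were -2.37 ± 0.51 for Sost, -3.08 ± 0.39 for Hhip and 2.95 ± 0.39 for Frzb. Of 10 measured cartilage-like markers, 6 were past the threshold on the higher and 1 on the lower side. Those higher included Col2a1, the cartilage collagen (4.66 ± 0.70 on the log2 scale), and Runx2, a transcription factor of bone and cartilage (1.61 ± 0.28). The sums of this list overlapped, with 242 to 413 in EKO, against 178 to 357 in WT. The part of macrophages and of cartilage-like cells in these values was not tested. Nothing is read from the values of other genes either. Outside both pathways, Grem1, an antagonist of bone morphogenetic proteins, differed by 3.29 ± 0.44 on the log2 scale. Among the other genes of both pathways, the Wnt amplifier Rspo2 differed by 1.99 ± 0.32 and the Wnt target Axin2 by -1.14 ± 0.30. Gli1, a transcription factor and target of hedgehog signalling, differed by -1.78 ± 0.38 and the ligand Ihh by -1.26 ± 0.39. Among the 6 hedgehog transducers and targets, 0 were past the threshold on the higher and 2 on the lower side, and among the 9 Wnt targets 1 and 4. Rspo2 went against its list of 6 R-spondins and their receptors, of which 1 was past the threshold higher and 3 lower. That list summed to 76.5 to 94.7 in EKO, against 146 to 209 in WT.

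The other 3 comparisons that hold the EKO libraries on WD for 22 weeks are given side by side, and they share those libraries. EKO/hA-I aortas in the same feeding had 8.52, 14.0 and 57.3 units of Frzb, so all 3 lay below the EKO libraries and replicate 3 well above its group mates. The log2 difference of EKO/hA-I from EKO was -3.14 ± 0.47 for Frzb, -1.37 ± 0.31 for Sfrp1, -1.80 ± 0.55 for Wif1 and 0.90 ± 0.48 for Hhip. The Hhip values of EKO/hA-I (12.3, 4.80 and 4.79) all lay above those of EKO, while those of Sost (54.3, 85.7 and 199 in EKO/hA-I) overlapped them. In these libraries macrophage markers summed to 1056 to 2381 in EKO/hA-I, against 6819 to 9812 in EKO (11 of 12 past the threshold, lower), brown adipocyte markers to 6274 to 7938, against 1406 to 5442, and skeletal muscle markers to 935 to 3245, against 25.4 to 130. With the brown adipocyte term and with terms for 4 tissues, Wif1 stood at -0.70 ± 0.50 and -0.27 ± 0.54, Hhip at 1.81 ± 0.45 and 2.12 ± 0.52, and Frzb at -2.25 ± 0.45 and -2.30 ± 0.53. Sost, at -0.11 ± 0.68 without a term, turned to 1.31 ± 0.59 and 1.92 ± 0.65. In EKO after 22 weeks, WD differed from chow by 2.54 ± 0.47 for Frzb (33.4, 32.0 and 24.5 on chow), 1.05 ± 0.31 for Sfrp1, -1.80 ± 0.48 for Hhip (12.4, 22.3 and 8.39 on chow) and -1.99 ± 0.68 for Sost (422, 546 and 331 on chow). There macrophage markers summed to 6819 to 9812 on WD, against 1298 to 2182 on chow, and with the smooth muscle term Sost stood at -1.11 ± 0.31 and Hhip at -1.42 ± 0.42. In EKO on WD, 22 weeks differed from 6 weeks by 2.57 ± 0.47 for Frzb, -2.17 ± 0.48 for Hhip and -2.18 ± 0.68 for Sost. Macrophage markers summed to 6819 to 9812 at 22 weeks, against 958 to 1559 at 6 weeks (12 of 12 past the threshold, higher), and smooth muscle markers to 6219 to 10810, against 13280 to 28350 (5 of 10, lower). With the smooth muscle term Sost stood at -0.30 ± 0.35, Hhip at -1.36 ± 0.48 and Frzb at 3.55 ± 0.42. The part of these cells in the values was not tested. Members past the threshold numbered 3 of 8 for EKO/hA-I against EKO (18.8% of all genes), 4 for WD against chow (18.7%) and 3 for 22 against 6 weeks (13.4%), and nothing is read from these counts either.

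The remaining 20 comparisons of 2 groups do not hold those libraries, and their members were tested with limma over all genes. In WD against chow in EKO/hA-I at 22 weeks, 6 of the 8 antagonists fell. Those 6 comprise 3 ligand-binding Wnt antagonists (Wif1, Sfrp1 and Sfrp2), the coreceptor antagonist Sost, Dkk3 and the hedgehog antagonist Hhip. Wif1 had 0.378, 1.06 and 3.47 units of signal on WD, against 30.6, 18.3 and 25.5 on chow, a fold of 0.0923 (log2 fold change -3.44 ± 0.55, adjusted p = 0.0003, limma). Sfrp2 had 72.4, 91.4 and 164 on WD, against 714.5, 402 and 518 on chow (-2.35 ± 0.49, adjusted p = 0.0013, limma). Sfrp1 had 76.5, 66.2 and 120 on WD, against 233, 150 and 171 on chow (-1.09 ± 0.31, adjusted p = 0.0085, limma). In all 3 genes every WD library lay below every chow library. Sost had 54.3, 85.7 and 199 on WD, against 1178.5, 522 and 804.5 on chow (-3.00 ± 0.68, adjusted p = 0.0021, limma). Dkk3 had 107, 85.2 and 194 on WD, against 515, 433 and 473 on chow (-1.96 ± 0.39, adjusted p = 0.001, limma). Hhip had 12.3, 4.80 and 4.79 on WD, against 59.7, 44.0 and 59.9 on chow (-2.84 ± 0.48, adjusted p = 0.00041, limma). These groups did not overlap either. Frzb overlapped, with 8.52, 14.0 and 57.3 on WD, against 47.4, 35.7 and 36.4 on chow (-1.0 ± 0.47, adjusted p = 0.097, limma), and so did Dkk2 (10.3, 4.50 and 8.53 on WD, against 5.07, 8.04 and 4.16 on chow). On this scale, log2(value + 1), the change of low genes such as Wif1 is understated.

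The 6 of 8 antagonists that fell stood beside 17.5% of all genes that fell and 38.2% that passed in either direction, and ranges were apart for 6 members and for 51.6% of all genes. The median log2 difference was -2.16 over the 8 antagonists and 0.05 over all genes. As the genes were picked with results of these data known, these shares and medians describe the list and test nothing. Tissue markers differed between the same libraries, and diet and tissue makeup cannot be told apart in this contrast. The smooth muscle markers summed to 4228 to 10420 on WD, against 23780 to 35910 on chow, and the brown adipocyte markers to 6274 to 7938 on WD, against 1688 to 2097 on chow. Skeletal muscle markers summed to 935 to 3245 on WD, against 12.2 to 44.1 on chow, and macrophage markers to 1056 to 2381, against 482 to 713. With a term for the brown adipocyte or the smooth muscle markers, each with adjusted p over all genes, 0 of the 8 antagonists passed, and 2 had an unadjusted p under 0.05 with either term. The 6 that had fallen stayed negative with either term. With the brown adipocyte and the smooth muscle term, Wif1 came to -1.83 ± 0.57 and -1.26 ± 0.38 and Hhip to -1.52 ± 0.52 and -1.63 ± 0.55. Sost came to -0.93 ± 0.68 and -0.21 ± 0.41 in the same order. Without EKO/hA-I WD 22 weeks replicate 2, Sfrp1 lost its call (adjusted p = 0.0537, limma).

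**Figure D2:**
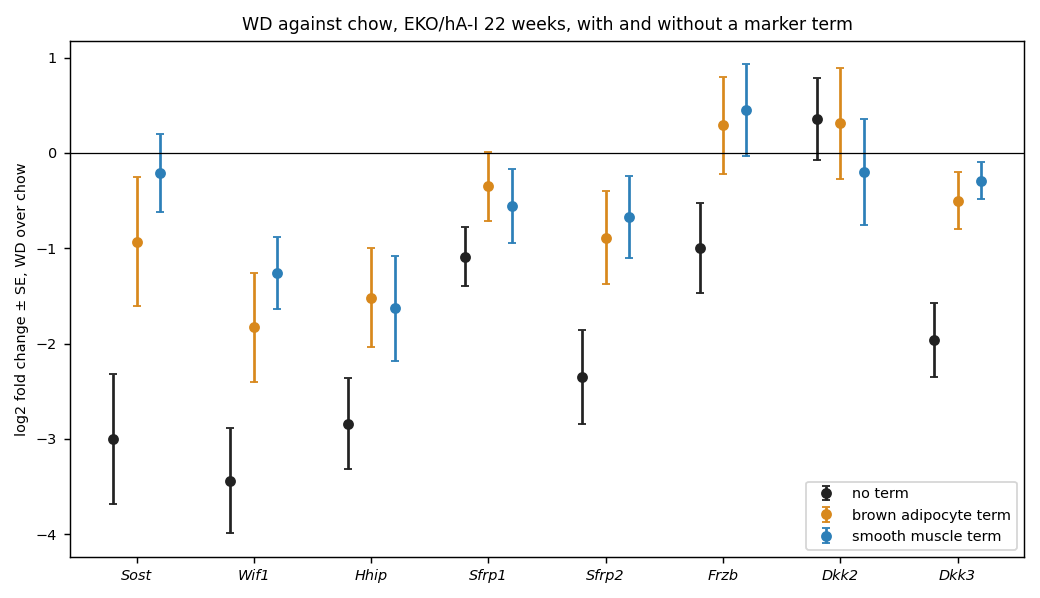
Log2 fold change ± SE of WD over chow in EKO/hA-I aortas at 22 weeks (3 libraries a group) for the 8 genes, without a term, with a brown adipocyte term and with a smooth muscle term. Wif1 lies at -3.44 without a term, -1.83 with the brown adipocyte term and -1.26 with the smooth muscle term, and Sost at -3.00, -0.93 and -0.21.

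In the same contrast, genes of both pathways beyond the antagonists also fell, as did genes of lists outside both pathways. The share of all genes that fell there is given above. Of the 6 hedgehog transducers and targets 5 fell, among them Gli2 (-1.71 ± 0.38), Foxf1 (-1.74 ± 0.44), Gli3 (-0.86 ± 0.23) and Gli1 (-1.32 ± 0.38). Of the 12 hedgehog ligands and receptors 6 fell, including the ligand Ihh (-1.81 ± 0.39), the secreted Scube3 (-2.13 ± 0.53), the coreceptor Cdon (-0.84 ± 0.24) and the signal transducer Smo (-1.12 ± 0.32). Of the 16 Wnt receptors 9 fell and 0 rose, with the Frizzled receptors Fzd7 (-1.31 ± 0.28), Fzd2 (-1.76 ± 0.44) and Fzd1 (-1.07 ± 0.27) and the receptor tyrosine kinase Ror1 (-1.64 ± 0.42) of smallest p. Of the 11 Wnt ligands 5 fell and 1 rose, with Wnt16 at -1.92 ± 0.45, Wnt5b at -1.03 ± 0.25, Wnt9a at -1.18 ± 0.30 and Wnt5a at -1.05 ± 0.28. Of 9 Wnt targets 3 fell and Axin2 rose (0.81 ± 0.30, adjusted p = 0.037, limma). Of the 8 measured antagonists outside the set (Sfrp4, Sfrp5, Dkk1, Sostdc1 and others), 0 passed with limma and 0 had an unadjusted p under 0.05. Of the 6 R-spondins and their receptors 1 fell and 1 rose. The medians of these lists ran from -1.13 for hedgehog transducers and targets to -0.11 for the other antagonists. Outside both pathways, 4 of 8 secreted antagonists of bone morphogenetic proteins fell and 1 rose. Of 10 smooth muscle markers 9 fell and 1 rose, and of 11 adventitial fibroblast markers 4 fell and 1 rose. Of 12 macrophage markers 8 rose and 0 fell. The lists were not fitted with the tissue terms.

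The comparison of EKO/hA-I with WT after 22 weeks of WD uses the same EKO/hA-I libraries. Its WT libraries are those beside which Hhip was described as low in EKO. Here 5 antagonists fell, beside 9.46% of all genes that fell, and ranges were apart for 6 (44.4% of all genes). Wif1 was 0.378, 1.06 and 3.47 in EKO/hA-I, against 9.37, 22.4 and 16.2 in WT (-2.79 ± 0.55, adjusted p = 0.0024, limma). Hhip fell by 1.94 ± 0.48 on the log2 scale (adjusted p = 0.0092, limma), with 12.3, 4.80 and 4.79 in EKO/hA-I, against 21.7, 43.5 and 23.9 in WT. Dkk3 had 107, 85.2 and 194 in EKO/hA-I, against 307, 402.5 and 354.5 in WT (-1.54 ± 0.39, adjusted p = 0.011, limma). These 3 genes did not overlap between the genotypes. Sost (-2.10 ± 0.68, adjusted p = 0.034, limma) and Sfrp2 (-1.50 ± 0.49, adjusted p = 0.035, limma) were likewise lower in each EKO/hA-I library than in any WT library. Dkk2 also had ranges apart but lay higher in EKO/hA-I (7.78 ± 2.98, against 3.32 ± 0.652 in WT, SD, n = 3 each) without passing (0.97 ± 0.43, adjusted p = 0.11, limma). Sfrp1 (-0.08 ± 0.31) and Frzb (0.05 ± 0.47) differed by less than their SE. The median difference was -1.52 over the 8 antagonists and 0.03 over all genes, which again describes the picked list and tests nothing. The smooth muscle markers summed to 4228 to 10420 in EKO/hA-I, against 16880 to 27630 in WT, and the brown adipocyte markers to 6274 to 7938, against 3229 to 5482. Skeletal muscle markers summed to 935 to 3245 in EKO/hA-I, against 29.1 to 490.5 in WT, and macrophage markers to 1056 to 2381, against 384 to 769. With the smooth muscle term 0 of 8 passed (2 at an unadjusted p under 0.05), Sost turning to 0.12, and with the brown adipocyte term Wif1 and Dkk3 passed (adjusted p = 0.015 and 0.044, limma). Sost lost its call without WT replicate 2 (adjusted p = 0.13, limma), WT replicate 3, whose tag names EKO (0.11), EKO/hA-I replicate 1 (0.14) or EKO/hA-I replicate 2 (0.11). Sfrp2 lost it without the same libraries (adjusted p = 0.13, 0.077, 0.13 and 0.12, limma), Hhip without WT replicate 2 (0.061) or EKO/hA-I replicate 2 (0.0536), and Dkk3 without EKO/hA-I replicate 2 (0.072).

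**Figure D3:**
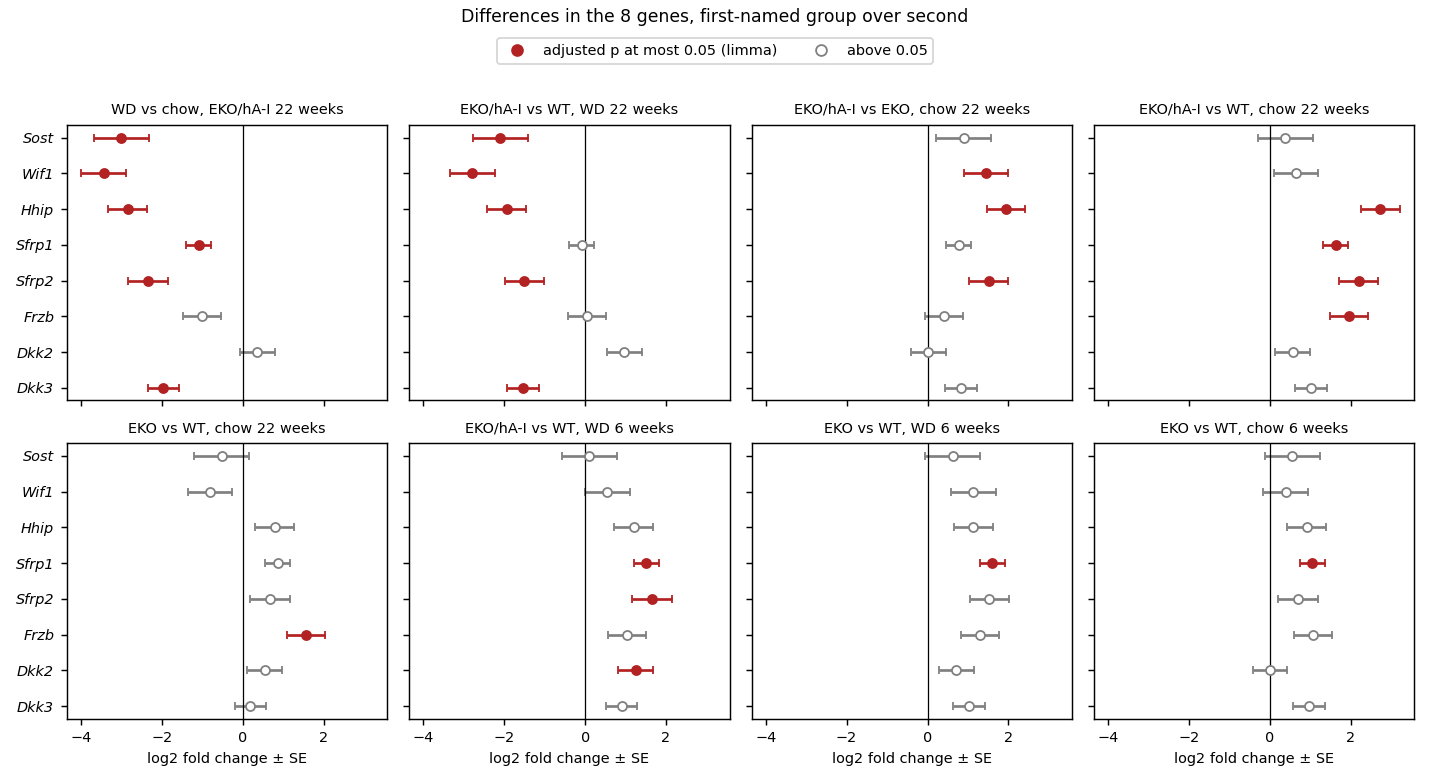
Log2 fold change ± SE of the 8 genes in 8 tested comparisons, the first-named group over the second; filled red points have an adjusted p of at most 0.05 (limma, all genes). In WD against chow of EKO/hA-I at 22 weeks 6 genes lie to the left of 0 and pass, and in EKO/hA-I against WT on chow at 22 weeks 4 lie to the right and pass.

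On chow at 22 weeks, EKO/hA-I aortas had higher levels of several antagonists than either other genotype. Against WT, 4 rose (6.51% of all genes rose), and ranges were apart for 6 (28.7% of all genes). Hhip had 59.7, 44.0 and 59.9 in EKO/hA-I, against 9.35, 5.09 and 8.02 in WT (2.73 ± 0.48, adjusted p = 0.00075, limma). Sfrp2 had 714.5, 402 and 518 in EKO/hA-I, against 148, 55.7 and 187 in WT (2.19 ± 0.49, adjusted p = 0.005, limma). Frzb had 47.4, 35.7 and 36.4 in EKO/hA-I, against 14.5, 3.87 and 14.1 in WT (1.96 ± 0.47, adjusted p = 0.0087, limma). Sfrp1 had 233, 150 and 171 in EKO/hA-I, against 108, 36.1 and 49.4 in WT (1.63 ± 0.31, adjusted p = 0.0014, limma). In these 4 genes every EKO/hA-I library lay above every WT library. Adventitial fibroblast markers summed to 6876 to 7784 in EKO/hA-I, against 2159 to 5042 in WT, brown adipocyte markers to 1688 to 2097, against 3867 to 11680, and macrophage markers to 482 to 713, against 169 to 384. With the brown adipocyte term 0 of 8 passed (4 at an unadjusted p under 0.05), in a fit of the 2 groups alone only Hhip passed (adjusted p = 0.023, limma), and without WT replicate 2 Frzb and Sfrp2 missed the threshold (adjusted p = 0.081 and 0.05, limma, the second just over it). In the hedgehog list of ligands and receptors 5 of 12 rose, among them the receptor Ptch1 (1.36 ± 0.20) and the coreceptors Cdon (1.31 ± 0.24), Gas1 (1.00 ± 0.21) and Boc (1.57 ± 0.35).

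Against EKO on chow at 22 weeks, 3 antagonists rose in EKO/hA-I, beside 13.7% of all genes that rose. Hhip had 59.7, 44.0 and 59.9 in EKO/hA-I, against 12.4, 22.3 and 8.39 in EKO (1.94 ± 0.48, adjusted p = 0.0052, limma). Sfrp2 (714.5, 402 and 518, against 272, 220.5 and 107 in EKO) differed by 1.51 ± 0.49 (adjusted p = 0.023, limma). Wif1 (30.6, 18.3 and 25.5, against 6.28, 11.9 and 7.49 in EKO) differed by 1.45 ± 0.55 and only just passed (adjusted p = 0.0498, limma). In these 3, and in 6 of the 8 in all, ranges were apart (45.0% of all genes). Smooth muscle markers summed to 23780 to 35910 in EKO/hA-I, against 11680 to 16180 in EKO, brown adipocyte markers to 1688 to 2097, against 4204 to 7795, and macrophage markers to 482 to 713, against 1298 to 2182. With the brown adipocyte or the smooth muscle term 0 of 8 passed (1 and 2 at an unadjusted p under 0.05), and a fit of the 2 groups alone called 5. Wif1 lost its call without any one of 5 of the 6 libraries: EKO replicate 1 (adjusted p = 0.15, limma) or 3 (0.12), or EKO/hA-I replicate 1 (0.13), 2 (0.058) or 3 (0.12). Sfrp2 lost it without EKO replicate 3 (0.14) or EKO/hA-I replicate 1 (0.084) or 3 (0.062), and with a term for the 12 libraries that lack Y-linked transcripts (0.058), with which Wif1 stood at 0.13.

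EKO against WT was tested in the 3 settings other than WD at 22 weeks, and only Frizzled-related genes passed there. On chow at 22 weeks Frzb rose, with 33.4, 32.0 and 24.5 in EKO, against 14.5, 3.87 and 14.1 in WT (1.56 ± 0.47, adjusted p = 0.027, limma; 7.35% of all genes rose). On WD at 6 weeks Sfrp1 rose, with 231, 137 and 117 in EKO, against 48.9, 44.8 and 59.1 in WT (1.60 ± 0.31, adjusted p = 0.0052, limma; 3.94% of all genes rose). On chow at 6 weeks Sfrp1 had 97.1, 126 and 156 in EKO, against 63.3, 58.2 and 56.8 in WT (1.05 ± 0.31, adjusted p = 0.0481, limma; 2.27% of all genes rose). In each case every EKO library lay above every WT library. Ranges were apart for 1 member on chow at 22 weeks (25.3% of all genes), 3 on WD at 6 weeks (24.9%) and 3 on chow at 6 weeks (27.1%). On chow at 22 weeks macrophage markers summed to 1298 to 2182 in EKO, against 169 to 384 in WT, all 12 of them higher past the threshold, and 6 of 11 adventitial fibroblast markers were higher too (sums of 4637 to 6802, against 2159 to 5042); their part in the Frzb value was not tested. Adventitial fibroblast markers summed to 5752 to 7834 in EKO on WD at 6 weeks, against 2781 to 3549 in WT, and on chow at 6 weeks to 4845 to 7541, against 3768 to 5042; their part in the Sfrp1 values was not tested. Macrophage markers summed to 958 to 1559 in EKO on WD at 6 weeks, against 269 to 618 in WT. On chow at 6 weeks brown adipocyte markers summed to 1519 to 2059 in EKO, against 2368 to 6296 in WT, and the Sfrp1 call there was lost with the brown adipocyte term (0.68, adjusted p = 0.24, limma), the 4 tissue terms (0.67, 0.24) and the smooth muscle term (0.84, 0.14). In fits of the 2 groups alone 0 of 8 passed in each of the 3 settings (1, 5 and 3 at an unadjusted p under 0.05, in the order above). The Frzb call was lost without WT replicate 2 (adjusted p = 0.14, limma) or EKO replicate 1 (0.11) or 2 (0.06). The Sfrp1 call on WD was lost without EKO replicate 1 (0.058), and that on chow without any WT library (0.2, 0.13 and 0.061) or EKO replicate 2 (0.11) or 3 (0.26). Whether the genotype difference changed with diet at 6 weeks, or with duration on chow, was tested as an interaction, and 0 of 8 members passed with limma in both (0 at an unadjusted p under 0.05), where 0% and 15.1% of all genes passed.

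After 6 weeks of WD, 3 antagonists rose in EKO/hA-I relative to WT, beside 8.00% of all genes, and ranges were apart for 5 (39.5% of all genes). Sfrp1 had 124, 145 and 172 in EKO/hA-I, against 48.9, 44.8 and 59.1 in WT (1.51 ± 0.31, adjusted p = 0.0031, limma). Sfrp2 had 217, 237 and 470 in EKO/hA-I, against 49.2, 123 and 126 in WT (1.65 ± 0.49, adjusted p = 0.023, limma). Dkk2 had 9.32, 7.78 and 7.71 in EKO/hA-I, against 5.72, 1.25 and 2.84 in WT (1.25 ± 0.43, adjusted p = 0.0462, limma). The genotypes did not overlap in these 3. Adventitial fibroblast markers summed to 7291 to 8737 in EKO/hA-I, against 2781 to 3549 in WT, macrophage markers to 765 to 1468, against 269 to 618, and brown adipocyte markers to 2379 to 5736, against 7401 to 15010. In a fit of the 2 groups alone 1 of 8 passed (6 at an unadjusted p under 0.05). The Dkk2 call was lost without WT replicate 2 (adjusted p = 0.19, limma) or 3 (0.085) or any EKO/hA-I library (0.12, 0.069 and 0.11), and that of Sfrp2 without WT replicate 1 (0.17) or EKO/hA-I replicate 3 (0.14). With the brown adipocyte term 0 of 8 passed (3 at an unadjusted p under 0.05).

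In WT mice on WD, 22 weeks against 6 weeks, Hhip and Sfrp2 rose (3.21% of all genes rose). The libraries at 22 weeks are also those beside which Hhip was described as low in EKO. Hhip had 21.7, 43.5 and 23.9 at 22 weeks, against 4.10, 7.80 and 12.5 at 6 weeks (1.79 ± 0.48, adjusted p = 0.029, limma). Sfrp2 had 250, 359 and 277 at 22 weeks, against 49.2, 123 and 126 at 6 weeks (1.67 ± 0.49, adjusted p = 0.04, limma). Neither gene overlapped between the durations, and ranges were apart for 5 members in all (33.3% of all genes). Brown adipocyte markers summed to 3229 to 5482 at 22 weeks, against 7401 to 15010 at 6 weeks, and with their term 0 of 8 passed (0 at an unadjusted p under 0.05). Adventitial fibroblast markers summed to 4540 to 7508 at 22 weeks, against 2781 to 3549 at 6 weeks (7 of 11 higher past the threshold), and endothelial markers to 1384 to 1667, against 2016 to 2400 (5 of 10 lower); their part in the rise was not tested. In a fit of the 2 groups alone both stood at an adjusted p of 0.072 (limma). The Hhip call was lost without 6 weeks replicate 1 (0.16) or 2 (0.0522) or 22 weeks replicate 1 (0.0545) or 2 (0.16), and the Sfrp2 call without 6 weeks replicate 1 (0.22) or 22 weeks replicate 1 (0.081), 2 (0.17) or 3 (0.059). The response to WD in WT differed between the durations for the same pair. Hhip differed from chow by 1.82 ± 0.48 at 22 weeks (adjusted p = 0.0543, limma) and by -1.06 ± 0.48 at 6 weeks, an interaction of 2.88 ± 0.68 (adjusted p = 0.0095, limma). For Sfrp2 the interaction was 2.38 ± 0.69 (adjusted p = 0.029, limma), and 9.81% of all genes passed this test.

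In 11 of the 20 tested comparisons 0 of 8 antagonists passed with limma. EKO/hA-I against EKO after 6 weeks was among them on either diet, with 0 members on WD and 1 on chow at an unadjusted p under 0.05, where 0.0706% and 0.0777% of all genes passed. The Frzb difference there was -0.24 ± 0.47 on WD and -0.38 ± 0.53 on chow. In EKO/hA-I on WD at 22 against 6 weeks, the log2 difference was negative for all 8 antagonists, although the mean of Frzb itself was 26.6 at 22 weeks, against 24.6 at 6 weeks. Ranges were apart for 6 (29.4% of all genes) and 6 had an unadjusted p under 0.05, but 0 passed where 0.0706% of all genes did. Wif1 differed there by -2.09 ± 0.55 (adjusted p = 0.11, limma) and Sost by -1.77 ± 0.68 (0.17). WD against chow gave 0 passing members in WT at 22 weeks (2 at an unadjusted p under 0.05; 1.36% of all genes passed), in WT at 6 weeks (3; 1.43%), in EKO at 6 weeks (0; 0.0848%) and in EKO/hA-I at 6 weeks (0; 0.00706%). EKO/hA-I against WT on chow at 6 weeks gave 0 (1 unadjusted), where 0.120% of all genes passed. On chow, 22 against 6 weeks gave 0 in WT (1 unadjusted; 0.120% of all genes) and EKO/hA-I (3; 0.00706%). In EKO on chow it also gave 0 (3 unadjusted), although 27.0% of all genes passed there.

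Across all 35 libraries the antagonists followed different tissue markers. These correlations are across libraries that share the groups and the tissue makeup, and they describe the data without a test. Sost varied most closely with the smooth muscle markers (Pearson r 0.92 over 35 libraries, 0.90 after group means were removed), as did Wif1 (0.87 and 0.87) and Dkk3 (0.84 and 0.94). Sfrp1 varied with the adventitial fibroblast markers (0.86 and 0.82). Frzb varied with the macrophage markers over all libraries (0.80), but much less within groups (0.35), where its closest list of 5 was smooth muscle (0.67). Against brown adipocyte markers every antagonist ran negative, from -0.85 for Dkk3 to -0.12 for Dkk2. Dkk2 had r of -0.55 to Sost, 0.53 to Sfrp1 and 0.51 to Frzb (-0.47, 0.20 and 0.12 within groups). Sost and Wif1 (0.86), Sfrp2 and Dkk3 (0.86), Wif1 and Dkk3 (0.85) and Sfrp1 and Frzb (0.81) ran together.

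**Figure D4:**
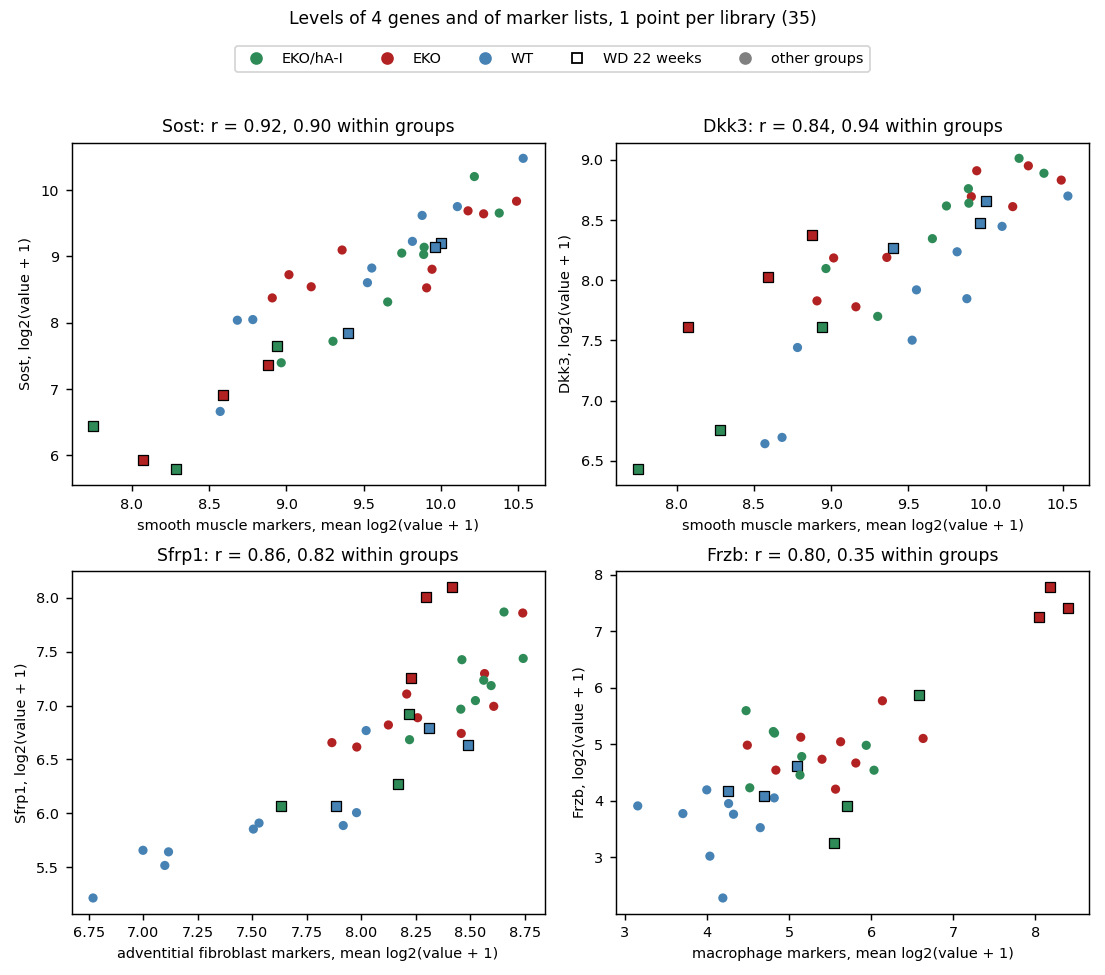
Log2(value + 1) of Sost, Dkk3, Sfrp1 and Frzb against the mean log2 level of a marker list, 1 point per library (35); squares are the groups on WD for 22 weeks, circles the others, and titles give Pearson r over all libraries and within groups. The EKO libraries on WD for 22 weeks sit alone at the upper right of the Frzb panel, where r is 0.80 over all libraries and 0.35 within groups.

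The genes whose levels ran most like each antagonist over the 35 libraries were named by Pearson r, with Spearman rho beside it. For Sost they were Pdlim3 (0.96, rho 0.94), the adenylyl cyclase Adcy5 (0.95, rho 0.93) and Jph2 (0.94, rho 0.93). For Frzb they included the proteoglycan Sdc1 (0.94, rho 0.87) and the small GTPase Rab31 (0.93, rho 0.86). For Hhip they were tissue factor, F3 (0.92, rho 0.92), Pard3b (0.89, rho 0.89) and the neuropeptide receptor Vipr2 (0.88, rho 0.86). For Sfrp1 they were the gelatinase Mmp2 and the matrix protein Fbln2 (0.95, rho 0.94 each), and for Sfrp2 Islr (0.95, rho 0.91) and Ntn1 (0.93, rho 0.88). Wif1 was nearest to Dctn6 (0.92, rho 0.91) and Dkk3 to Pam (0.95, rho 0.96). Dkk2 had no neighbour closer than Plscr1 (0.80, rho 0.84), followed by Ralgds (0.76, rho 0.78) and Oasl2 (0.73, rho 0.75).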

How the data were processed

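RNA-seq of 35 aorta libraries was used as the authors deposited it, in 1 table of normalised signal per gene and library, whose columns sum to 907492 to 1137737. The scale is not given in the sources used here, nor is the counting or the annotation. Bowtie 0.12.2, Bowtie2 and RSEM, and the builds mm8 and mm9, are named in the submitters' processing notes without role or order. Taking values up to 1.5, only 71.6 to 81.5% per library came out whole (tolerance 0.02 reads), so counts could not be recovered and no count test was run. Reads per library, 6.86 to 25.33 M, were inferred from the step between low values, and this number limits the precision of low genes.

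Differences were tested two-sided with limma 3.58.1 (robust, with trend; R 4.3.3) after a log2(value + 1) transform, all 12 groups sharing 1 model. A gene needed 3 libraries reaching 1, which kept 14157 genes and dropped 17. P-values had Benjamini-Hochberg adjustment over all genes within a comparison and the threshold was 0.05. This step was tested on simulated data. The labels do not name separate cultures or animals for each library, so p-values measure the spread between these samples. There were 24 comparisons of 2 groups, 4 of them given as descriptions, and 3 interactions. Genes were looked up by symbol.

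The 8 members, the 17 gene lists with 194 entries and the tests were chosen with earlier results of these data known. Within a list, up to 4 genes of smallest p were named, and some of these were left out for length. Genes most like a member were the 3 of highest Pearson r with a mean log2 value of at least 3, of which not all are reported here. Marker lists can share expression with the wall itself. Alternatives were a replicate block, models holding just the pair of groups, pseudocounts of 0.1 and 5, no filter, median-ratio rescaling (factors 0.971 to 1.019), terms for brown adipocyte markers, for 4 tissues, for smooth muscle markers (chosen after seeing the data) and for the absence of Y-linked transcripts, and each library left out. Residual correlations by replicate number were checked for a pairing. With 3 pairs, all exceeded 0.1 only on WD at 22 against 6 weeks, in WT (0.13 to 0.34) and EKO (0.12 to 0.44). The main fit treated no samples as paired, and the replicate block was run only as an alternative. No label states a pairing.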

Additional observations from a re-analysis of the deposited data

Results flagged for a closer look

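Hhip and Sfrp2 stood out because the response of WT aortas to WD differed between the durations by a test of that difference itself. The WT libraries on WD for 22 weeks are also those beside which Hhip was described as low in EKO. The genes were picked with results of these data known, so the test does not stand apart from that choice. For Hhip, WD minus chow at 22 weeks exceeded WD minus chow at 6 weeks by 2.88 ± 0.68 on the log2 scale (adjusted p = 0.0095, limma). Hhip had 21.7, 43.5 and 23.9 units of signal on WD at 22 weeks, against 9.35, 5.09 and 8.02 on chow, and 4.10, 7.80 and 12.5 on WD at 6 weeks, against 8.31, 23.2 and 23.4 on chow. For Sfrp2 the difference of differences was 2.38 ± 0.69 (adjusted p = 0.029, limma). Sfrp2 had 250, 359 and 277 on WD at 22 weeks, against 148, 55.7 and 187 on chow, and 49.2, 123 and 126 on WD at 6 weeks, against 124, 248 and 224 on chow. Brown adipocyte markers summed to 3229 to 5482 on WD and 3867 to 11680 on chow at 22 weeks, and to 7401 to 15010 on WD and 2368 to 6296 on chow at 6 weeks. With a term for these markers the adjusted p was 0.16 for Hhip and 0.43 for Sfrp2, and with the smooth muscle term 0.0031 for both (limma). The smooth muscle term was chosen after seeing the data, and 0 of 10 smooth muscle markers passed this interaction. Of 11 adventitial fibroblast markers 8 passed it on the higher side, and of 10 endothelial markers 3 on the lower side. Their part in the Hhip and Sfrp2 values was not tested. The Hhip call was kept in all 12 fits that left out 1 library, and that of Sfrp2 in 7 of 12, being lost without WT chow 6 weeks replicate 2 (adjusted p = 0.071, limma) or 3 (0.066), WT chow 22 weeks replicate 2 (0.091), WT WD 6 weeks replicate 1 (0.098) or WT WD 22 weeks replicate 2 (0.074).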

How the results depend on the processing

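Counts are of the 8 antagonists past the threshold. Of the 28 single-gene calls in tested comparisons, 11 were kept in every fit that left out 1 library. Rescaling and dropping the filter changed no call. Without term or block, EKO/hA-I relative to WT after 22 weeks of WD had 5, and it had 2 with the brown adipocyte term, 0 with the 4 tissue terms (brown adipocyte, skeletal muscle, nerve, cardiac) and 0 with the smooth muscle term, where Sost turned to 0.12. WD against chow in EKO/hA-I at 22 weeks had 6, and 0 with each of these 3. EKO/hA-I against EKO on chow at 22 weeks had 3, 5 with the 2 groups alone and 0 with each of the 3. EKO/hA-I against WT had 4 on chow at 22 weeks, 1 with the 2 groups alone and 0 with the brown adipocyte or 4 tissue terms, and on WD at 6 weeks 3, 1 and 0 in the same order. EKO against WT on chow at 22 weeks had 1, 0 with the 2 groups alone, 2 with the replicate block, 2 with the brown adipocyte and 4 with the smooth muscle term. On WD at 6 weeks it had 1, 0 with the 2 groups alone and 3 with the smooth muscle term, and on chow at 6 weeks 1, and 0 with the 2 groups alone or any of the 3. WD against chow in WT had 0, and 2 at 22 weeks and 1 at 6 weeks with the smooth muscle term. For 22 against 6 weeks, WT on WD had 2, and 0 with the 2 groups alone, the brown adipocyte or the 4 tissue terms; EKO on WD had 3, and 5 with the brown adipocyte or 4 tissue terms; EKO on chow had 0, 2 with the 2 groups alone or a pseudocount of 5 and 1 with the smooth muscle term. The interaction of diet and duration in WT had 2, and 0 with the brown adipocyte or 4 tissue terms. The cause of these changes was not tested. The replicate block gave 2, 3 and 0 calls for 22 against 6 weeks in WT on WD, EKO on WD and EKO/hA-I on chow, as without it, and elsewhere changed no count by over 1.5 times but the one above. EKO/hA-I and EKO on chow at 6 weeks, with 2 against 3 libraries, correlated negatively by number (-0.74 to -0.64).

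Leaving out 1 library gave 3 to 4 for EKO against WT on WD at 22 weeks, 2 to 4 for EKO/hA-I against EKO there, 1 to 5 for EKO/hA-I against WT there, 0 to 2, 1 to 3 and 2 to 5 for the same 3 on chow at 22 weeks with EKO against WT first, 0 to 2 for EKO against WT and 1 to 2 for EKO/hA-I relative to WT after 6 weeks of WD, 0 to 1 for EKO against WT on chow at 6 weeks, 2 to 3 and 5 to 7 for WD against chow at 22 weeks in EKO and in EKO/hA-I, 0 to 2, 2 to 4 and 0 to 1 for 22 against 6 weeks in WT on WD, EKO on WD and EKO on chow, 0 to 1 for the interaction of genotype and duration on chow, and 1 to 3 for that of diet and duration in WT. All other comparisons stayed at 0. Low values of Wif1, Hhip and Dkk2 rest on few reads, and folds of such genes are understated.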
